A study of Rattus norvegicus with 484 samples.

Results

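The genes described here are Fabp2, Fabp3, Fabp4 and Fabp5, which encode the intestinal, heart-type, adipocyte and epidermal fatty acid-binding proteins. Their probes were found by gene symbol, a step that used no measured values, though the genes were chosen with earlier results of these data known. They accounted for 7 of 23653 probes and 4 of 10210 named genes. Fabp2 was read by probe 10020289735, Fabp3 by probe 10020289157 and Fabp5 by probe 10020293844. Fabp4 was read by 4 probes, 10011845895, 10020289781, 10020289840 and 10020291052, whose values were averaged. In the RefSeq annotation of rat assembly GRCr8, Fabp2 lies at chr2:213724629-213728686 and Fabp3 at chr5:147936027-147942870. Fabp4 lies at chr2:93488251-93492961 and Fabp5 on the same chromosome at chr2:93672451-93676186. The exons that the probes match were not looked up.

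The series asked how rat skeletal muscle and liver respond to agonists of the nuclear receptor PPARA. Each of 484 arrays of 2 colours set RNA of 1 rat against a pool of vehicle-treated rats from the same tissue and day. Treated rats received rosiglitazone at 100 mkd (the unit as the labels write it), bezafibrate at 250 mkd, fenofibrate at 400 mkd, Wy-14643 at 100 mkd or retinoic acid at 25 mkd, and soleus, liver and a muscle labelled quad were taken on days 2 to 6. In that order of compounds, with single vehicle rats last, soleus had 20, 20, 19, 18, 20 and 35 arrays, quad had 16, 20, 18, 16, 18 and 63, and liver had 15, 15, 14, 15, 15 and 73. A muscle labelled EDL had lower doses and no single vehicle rats: rosiglitazone at 10 mkd (9 arrays) and at 100 mkd (4 arrays, day 4), bezafibrate at 25 mkd (9), fenofibrate at 50 mkd (9), Wy-14643 at 10 mkd (12) and retinoic acid at 2.5 mkd (11). Rosiglitazone is a thiazolidinedione and activates PPARG, the receptor that drives fat cell genes. Bezafibrate and fenofibrate are fibrates and, like Wy-14643, activate PPARA, which drives fatty acid oxidation, and bezafibrate also acts on the other PPARs. Retinoic acid is a ligand of the retinoic acid receptors. The labels given here state neither the strain, sex or age of the rats nor the vehicle, and the p-values measure the spread between arrays of single rats.

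Fatty acid-binding proteins are small proteins of the cytosol that hold long-chain fatty acids and carry them to membranes, enzymes and nuclear receptors. Fabp4 is made by fat cells, macrophages and the endothelium of small vessels, and is a classic PPARG target. Fabp5 is found in skin, endothelium, macrophages and many other cells and is known to deliver fatty acids to PPARD. Fabp3 is the abundant form of heart and skeletal muscle, where it carries fatty acids to mitochondria, and Fabp2 is the form of the absorptive cells of the small intestine. The chief form in hepatocytes is another member, Fabp1, which is not one of the genes described here.

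Fabp2 and Fabp3 moved in opposite directions in liver with the same compounds, so 250 bases before a start of each are shown, from RefSeq for GRCr8. For Fabp2 that start is the first base of the gene. For Fabp3 it is base 147936125, which lies 98 bases inside the gene as placed above, so the end of that window lies within the annotated gene. Capitals mark a direct repeat of the half-site AGNTCA spaced by 1 base (AGNTCANAGNTCA, read on the minus strand) in Fabp2, and TATTTAA in Fabp3.
Fabp2, chr2:213724379-213724628, plus strand: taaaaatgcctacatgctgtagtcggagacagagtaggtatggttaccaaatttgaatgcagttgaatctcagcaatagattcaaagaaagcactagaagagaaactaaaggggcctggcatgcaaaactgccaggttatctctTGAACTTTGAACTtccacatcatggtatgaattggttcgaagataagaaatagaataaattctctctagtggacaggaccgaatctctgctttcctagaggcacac
Fabp3, chr5:147935875-147936124, plus strand: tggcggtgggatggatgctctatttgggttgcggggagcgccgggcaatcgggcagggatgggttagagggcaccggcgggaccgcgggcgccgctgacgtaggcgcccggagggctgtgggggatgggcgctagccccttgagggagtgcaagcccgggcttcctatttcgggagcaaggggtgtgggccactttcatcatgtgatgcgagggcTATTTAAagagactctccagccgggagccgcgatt
The repeat lies 106 to 94 bases before the start of Fabp2, and 0.131% of 33469 rat promoter windows held it. TATTTAA lies 35 to 29 bases before base 147936125 in Fabp3, inside the annotated gene, and was held by 4.16% of the windows. Neither window held the consensus repeat AGGTCANAGGTCA (0.0508% of windows) or the single half-site AGGTCA (14.1%), on either strand. The motifs were chosen after these windows were read, and a match is a description of letters only. Fabp4 and Fabp5 were not in the promoter table.

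A log2 ratio above 0 was taken to mean more RNA in the rat than in the pool. The labels do not state the direction. It is likely from the channels, and it makes Cyp4a1, a PPARA target, higher in liver with fenofibrate (2.01), bezafibrate (1.53) and Wy-14643 (2.27), as log2 differences from vehicle. Since every array was scaled to its own pool, the ratios compare rats within a tissue and say nothing of how much of a gene one tissue holds against another. Of the 484 arrays, 9 stood apart by a wide spread or by marker genes of another tissue. The one that bears most on these genes was a liver array of rosiglitazone on day 4, rat 1376, whose hepatocyte markers had a median log2 ratio of -4.10 and whose slow muscle markers had a median of 2.47. Its ratios were -2.54 for Fabp2, 2.74 for Fabp3, 4.54 for Fabp4 and 1.73 for Fabp5. Day-averaged liver effects of rosiglitazone against vehicle are given with and without it. Other liver values for rosiglitazone include it unless stated.

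Against same-day vehicle rats, 17 of the 50 effects that could be tested passed limma's moderated test at an adjusted p of 0.05, with 12 higher and 5 lower. Each effect is a log2 difference averaged over days 2 to 6, and p-values were adjusted by Benjamini-Hochberg over all features of the array. In soleus 4 of 15 effects passed and in quad 4 of 15, of which 3 in each were higher. In liver 9 of 20 passed, 6 higher and 3 lower. Of all features, 0.191% to 3.33% passed per compound in soleus, 0.0163% to 6.86% in quad and 21.3% to 40.2% in liver, so a call in liver was far more common for any feature. The muscle calls fell on Fabp4 and Fabp5, and the liver calls on all 4 genes.

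**Figure D1:**
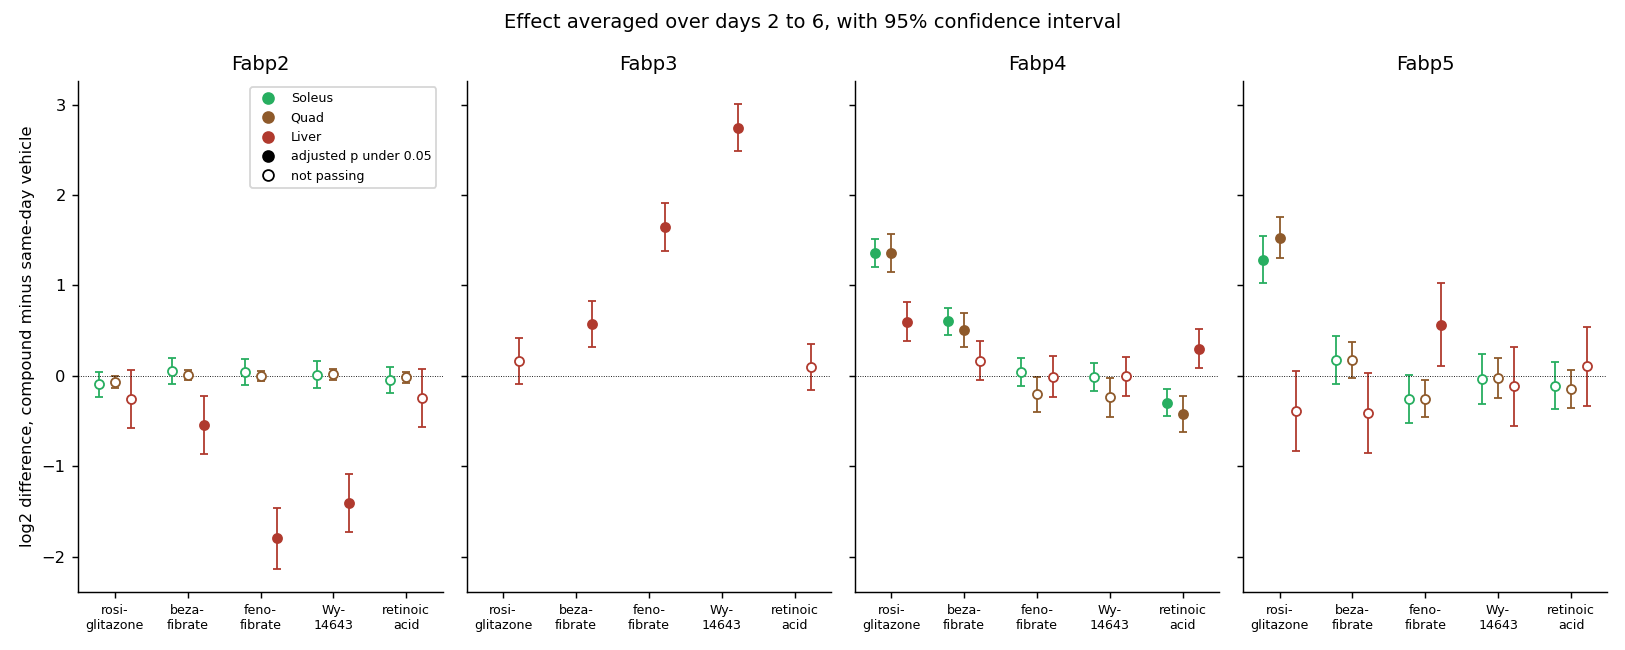
Effect of each compound on each gene, as the log2 difference between compound and same-day vehicle averaged over days 2 to 6 (y axis) with its 95% confidence interval, by compound (x axis) and tissue (colour). Filled points passed at an adjusted p of 0.05: Fabp4 and Fabp5 were higher in both muscles with rosiglitazone, and Fabp3 and Fabp2 moved to 2.75 and -1.41 in liver with Wy-14643. Fabp3 has no points for soleus and quad, where it was not tested.

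Rosiglitazone raised Fabp4 in every muscle measured. In soleus the lowest, median and highest log2 ratios were 0.74, 1.31 and 1.83 in rosiglitazone rats, against -0.97, -0.05 and 0.60 in vehicle rats. All 20 rosiglitazone rats lay above the highest of the 35 vehicle rats, so the groups did not overlap. The difference was 1.36 ± 0.08 (SE), which is 2.56-fold (adjusted p = 3.56e-30, limma), where 2.63% of all features passed. In quad the ratios were 0.80, 1.38 and 1.72 in rosiglitazone rats, against -0.60, -0.07 and 1.32 in vehicle rats. There 12 of 16 rosiglitazone rats lay above all 63 vehicle rats and 14 lay above every vehicle rat of their day. The difference was 1.36 ± 0.11, again 2.56-fold (adjusted p = 2.04e-20), where 6.86% of all features passed. The tissues were measured whole, so more cells of a type that holds the RNA and more RNA per cell cannot be told apart.

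Fabp5 rose in the same muscles. In soleus its lowest, median and highest ratios were 0.39, 1.30 and 1.84 in rosiglitazone rats, against -1.92, -0.02 and 1.49 in vehicle rats. The ranges overlapped because vehicle rats spread widely, but 19 of 20 rosiglitazone rats lay above every vehicle rat of their day. The difference was 1.29 ± 0.13, or 2.44-fold (adjusted p = 5.20e-13, limma). In quad the ratios were 0.60, 1.55 and 2.54 in rosiglitazone rats, against -0.90, -0.03 and 1.08 in vehicle rats, and 10 of 16 rosiglitazone rats lay above all vehicle rats. The difference there was 1.53 ± 0.11, or 2.88-fold (adjusted p = 2.67e-22). Without the arrays that stood apart, the 4 differences were 1.32 and 1.34 for Fabp4 and 1.24 and 1.54 for Fabp5, in soleus and quad in that order.

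**Figure D2:**
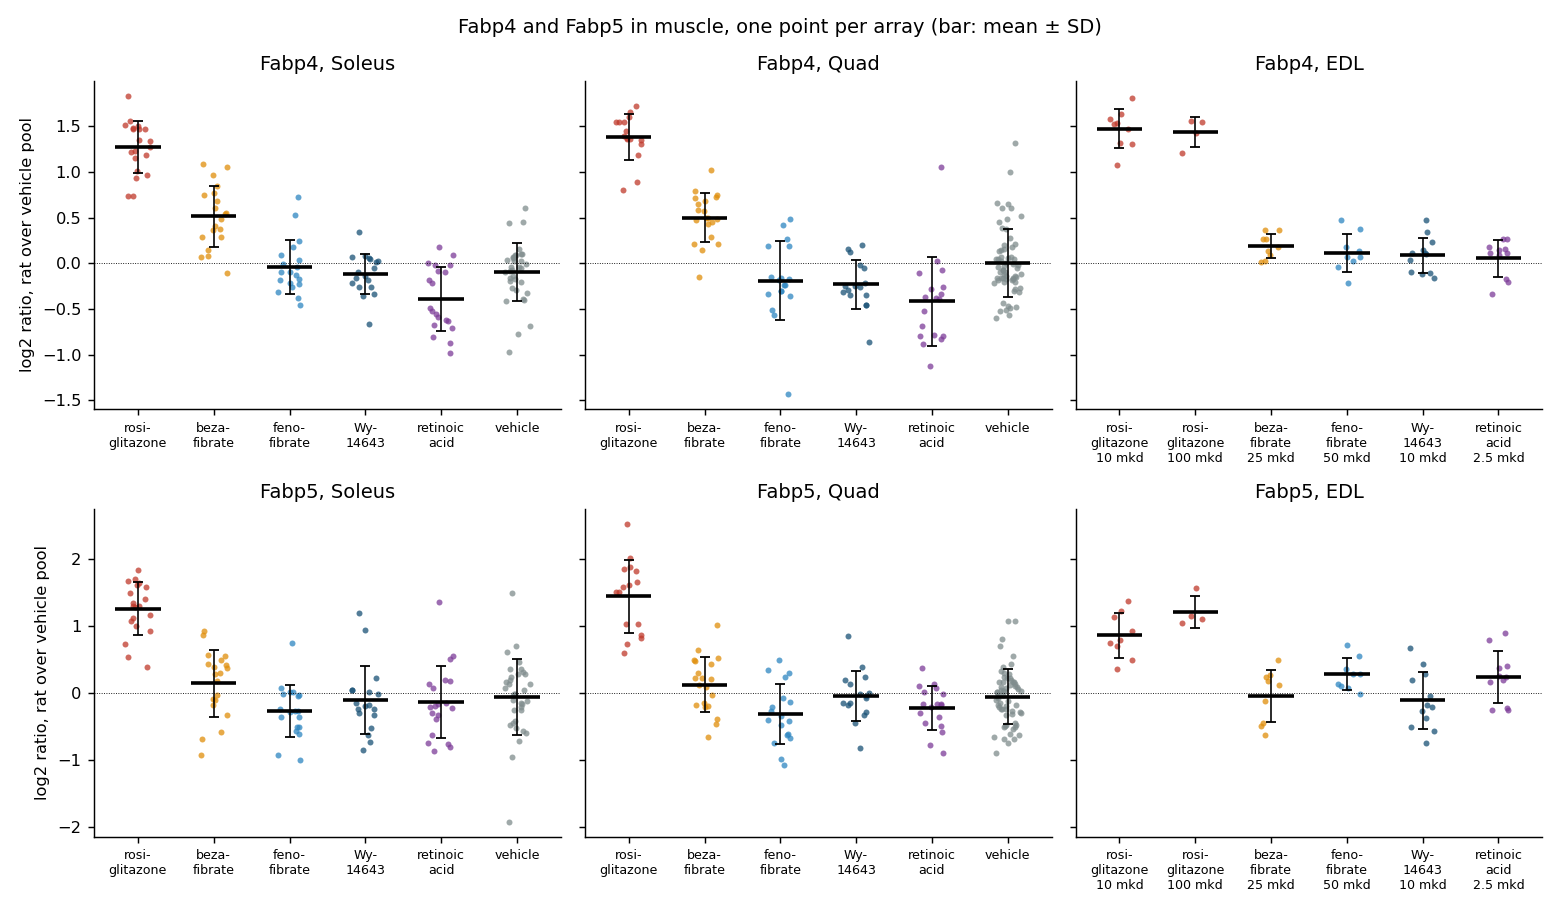
Log2 ratio of each rat to its vehicle pool (y axis) for Fabp4 (top) and Fabp5 (bottom) in soleus, quad and EDL, by compound (x axis). Points are arrays and bars are mean and SD. For Fabp4 all 20 rosiglitazone rats of soleus lie above the highest vehicle rat at 0.60, and in EDL all 13 rosiglitazone rats lie at 1.08 or above.

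Bezafibrate raised Fabp4 by less, in both muscles. In soleus the lowest, median and highest ratios were -0.11, 0.51 and 1.09 in bezafibrate rats, against the vehicle range given above. Every one of the 20 bezafibrate rats exceeded the vehicle mean of its day and 14 exceeded every vehicle rat of its day, though only 8 exceeded the highest vehicle rat of any day. The difference was 0.60 ± 0.08, or 1.52-fold (adjusted p = 2.12e-08, limma), where 0.904% of features passed. In quad the ratios were -0.15, 0.50 and 1.02 in bezafibrate rats and none exceeded the highest vehicle rat, while 19 of 20 exceeded their day's vehicle mean. The difference in quad was 0.50 ± 0.10, or 1.42-fold (adjusted p = 0.00046), where 1.63% passed. Fabp5 did not pass with bezafibrate, with differences of 0.17 ± 0.13 in soleus and 0.17 ± 0.10 in quad.

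Retinoic acid went the other way for Fabp4. The lowest, median and highest ratios in soleus were -0.98, -0.50 and 0.18 in retinoic acid rats, and 15 of 20 lay below their day's vehicle mean. Of the 20, 11 lay below every vehicle rat of their day and 1 lay above. Most lay inside the vehicle range over all days. The lowest vehicle ratio in soleus was -0.77 without the arrays that stood apart. The difference was -0.30 ± 0.08 (adjusted p = 0.0097, limma), where 2.85% of features passed. In quad the ratios were -1.12, -0.38 and 1.05 in retinoic acid rats, of which 7 of 18 lay below the lowest vehicle rat and 17 lay below their day's vehicle mean. The rat at 1.05 was the exception. The difference in quad was -0.42 ± 0.10 (adjusted p = 0.0051), where 2.42% passed. Both calls were lost when Fabp4 was read by probe 10011845895 alone, at -0.16 in soleus and -0.15 in quad. The call in soleus was also lost with probe 10020289781 alone (-0.32), and without day 3 (-0.25), day 4 (-0.32) or day 5 (-0.25). The call in quad was lost without day 3 (-0.37).

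The remaining effects on these genes in muscle did not pass. Fabp4 differed from vehicle by 0.04 ± 0.08 with fenofibrate and -0.02 ± 0.08 with Wy-14643 in soleus, where 3.33% and 0.191% of features passed. In quad the differences were -0.21 ± 0.10 with fenofibrate and -0.24 ± 0.11 with Wy-14643, where 5.69% and 0.0163% passed. Fabp5 differed by -0.26 ± 0.14 in soleus and -0.25 ± 0.11 in quad with fenofibrate. Fabp2 lay between -0.10 and 0.05 with all 5 compounds in both muscles, and its intervals were narrowest in quad, where the rosiglitazone difference was -0.07 with a 95% interval of -0.13 to -0.0045.

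Fabp3, the muscle form, could not be followed in soleus and quad. Its probe had no value on 128 of 132 soleus arrays and on 58 of 151 quad arrays, while all 147 liver arrays and all 54 EDL arrays had one. A feature needed a value on at least 80% of a tissue's arrays, so Fabp3 was not tested in either. Over the 93 quad arrays with a value, the median log2 ratio was -0.57 in 12 rosiglitazone rats, -0.09 in 11 bezafibrate rats, 0.21 in 12 fenofibrate rats, 0.03 in 9 Wy-14643 rats, -0.38 in 11 retinoic acid rats and -0.29 in 38 vehicle rats. These medians pool days, and missing values were spread unevenly over days. Against their day's vehicle mean, 6 of 12 rosiglitazone and 8 of 11 retinoic acid rats lay higher. So did 8 of 11 bezafibrate, 9 of 12 fenofibrate and 9 of 9 Wy-14643 rats. On some days few vehicle rats had a value. All these values are a description, and why values were missing was not tested.

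In EDL the ratio to the pool was tested against 0. This test leaves out the spread of vehicle rats, and any effect of the dyes stays in the ratio. Between 33.1% and 47.1% of features passed that test per compound, so a small shift there counts for little. Fabp4 stood well clear of the rest with rosiglitazone. At 10 mkd its lowest, median and highest ratios were 1.08, 1.52 and 1.81 in 9 rats, with a mean of 1.47 ± 0.06 (SE, adjusted p = 4.06e-21, limma), where 37.2% passed. The 4 rats at 100 mkd had ratios of 1.21 to 1.56 with a mean of 1.44 ± 0.09 (adjusted p = 1.63e-14), where 33.1% passed. Across the other 4 compounds the highest single ratio for Fabp4 was 0.47, so rosiglitazone rats did not overlap with any other rat of EDL. Fabp5 averaged 0.86 ± 0.11 at 10 mkd (range 0.36 to 1.37) and 1.22 ± 0.17 at 100 mkd (range 1.04 to 1.57).

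The doses of rosiglitazone were compared directly in EDL on day 4, where 0.0108% of features passed. Fabp4 differed by 0.04 ± 0.14 between 100 and 10 mkd, with a 95% interval of -0.25 to 0.32. Fabp5 differed by 0.54 ± 0.26, with an interval of 0.01 to 1.08, at an unadjusted p of 0.046 and an adjusted p of 0.999 (limma), which did not pass. Fabp2 and Fabp3 each differed by -0.03, with intervals of -0.29 to 0.23 and -0.55 to 0.49.

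Other EDL calls were small. Fabp4 with bezafibrate averaged 0.19 ± 0.06 (adjusted p = 0.015, limma; 33.9% of features passed) and Fabp3 with bezafibrate 0.33 ± 0.11 (adjusted p = 0.021), with 1 rat at 1.68. Over the EDL bezafibrate rats the median of slow muscle markers ran from -0.75 to 2.73. That of fast muscle markers ran from -2.66 to 0.23. In other EDL groups the slow median reached at most 0.46. The marker screen of muscle arrays used hepatocyte markers only, and the part of fibre type in the Fabp3 value was not tested. Fabp2 averaged 0.17 ± 0.06 with rosiglitazone at 10 mkd (adjusted p = 0.013) and 0.13 ± 0.05 with Wy-14643 (adjusted p = 0.034; 47.1% passed). Set against the mean of the other compounds in place of the pool, the calls of Fabp2 and Fabp3 were lost, at 0.10, 0.057 and 0.18. Fabp4 with bezafibrate turned to -0.27 on that basis, since the other compounds include rosiglitazone. Retinoic acid at 2.5 mkd left Fabp4 at 0.03 ± 0.06 and fenofibrate at 50 mkd left it at 0.12 ± 0.06, neither of which passed, where 40.4% and 34.6% of features did.

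Rosiglitazone and Wy-14643 were the only compounds given at the same dose in the same tissue, at 100 mkd in soleus, quad and liver and at 10 mkd in EDL. Rosiglitazone is a thiazolidinedione and Wy-14643 is not. This made 4 pairs of groups, with p-values adjusted within each over all features. Fabp4 was higher with rosiglitazone than with Wy-14643 in all 4: by 1.37 ± 0.08 in soleus, 1.60 ± 0.14 in quad, 0.61 ± 0.14 in liver and 1.36 ± 0.09 in EDL (adjusted p = 1.31e-26, 2.07e-18, 0.00039 and 1.27e-14, limma). The shares of features that passed were 1.55%, 3.90%, 30.1% and 0.323%. The liver difference was 0.30 ± 0.07 without rat 1376. Fabp5 was higher by 1.32 ± 0.15 in soleus, 1.55 ± 0.14 in quad and 0.98 ± 0.16 in EDL. It did not pass in liver at -0.27 (95% interval -0.84 to 0.29), with rat 1376 included.

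For the other genes the same pairs separated in liver. Fabp3 was lower with rosiglitazone than with Wy-14643 by 2.58 on the log2 scale, a difference of -2.58 ± 0.17 (adjusted p = 6.21e-27, limma). Fabp2 was higher by 1.15 ± 0.21 (adjusted p = 5.24e-06). In EDL at 10 mkd Fabp3 differed by -0.18 (interval -0.50 to 0.14) and Fabp2 by 0.04 (-0.12 to 0.20), and neither passed. Fabp2 did not pass in soleus at -0.11 (-0.27 to 0.05) or in quad at -0.08 (-0.16 to -0.003). All other compounds differed in dose and were not tested against each other.

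Because the series title names fibre type, effects in soleus, where slow fibres prevail, were set against effects in quad. None of the 15 differences passed for Fabp2, Fabp4 and Fabp5, where the shares of all features that passed were 0.0381% for rosiglitazone, 0.0490% for bezafibrate, 5.33% for fenofibrate, 0.00545% for Wy-14643 and 0.0708% for retinoic acid. The rosiglitazone effect on Fabp4 was 1.36 in both, and its difference, soleus minus quad, was -0.0008 with a 95% interval of -0.27 to 0.26. For Fabp5 the difference was -0.24 (-0.59 to 0.10). The bezafibrate effects on Fabp4 differed by 0.10 (-0.15 to 0.35), and the widest difference for Fabp4 was 0.25 (-0.01 to 0.50) with fenofibrate, at an adjusted p of 0.19 (limma). These intervals leave room for differences of up to 0.59 log2 units in the case of Fabp5.

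By day 2 the rosiglitazone effect on Fabp4 in muscle was near its average over days. On days 2, 3, 4, 5 and 6 it was 1.36, 1.21, 1.36, 1.33 and 1.51 in soleus. In quad it was 1.48, 1.5, 1.4, 1.31 and 1.11, and days 2 and 6 there had 2 rosiglitazone rats each. Over the 5 days bezafibrate effects on Fabp4 ran from 0.33 to 0.83 in soleus and from 0.27 to 0.66 in quad, and retinoic acid effects from -0.52 to -0.026 in soleus and from -0.65 to -0.21 in quad. Fabp5 in soleus stood at 1.35, 1.02, 1.36, 1.22 and 1.48, and in quad at 1.24, 0.89, 1.48, 1.91 and 2.12. The slope of Fabp5 in quad was 0.28 ± 0.09 per day with an unadjusted p of 0.0025, but its adjusted p was 0.999 (limma) and 0% of features passed for that slope. No slope of these genes passed with any compound. Of all features, 0% passed for every slope in soleus and quad except fenofibrate in quad (1.55%). In liver the shares were 0.196% with rosiglitazone, 0.0598% with bezafibrate, 0.446% with fenofibrate, 0.158% with Wy-14643 and 9.38% with retinoic acid.

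**Figure D3:**
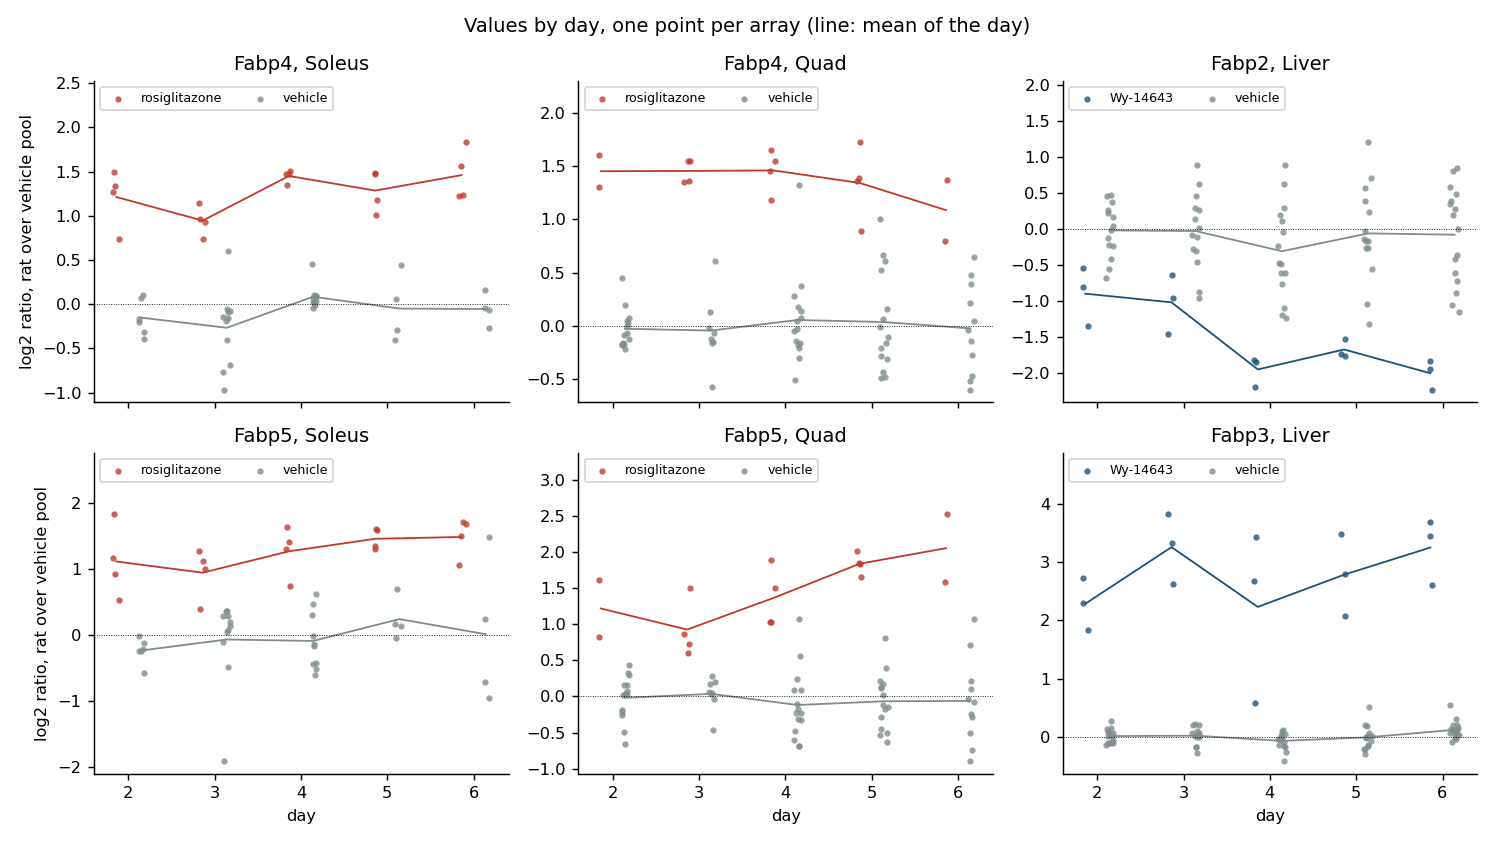
Log2 ratio to the vehicle pool (y axis) by day (x axis), with a point per array and a line through the means, for Fabp4 and Fabp5 with rosiglitazone in soleus and quad and for Fabp2 and Fabp3 with Wy-14643 in liver, each beside vehicle. Fabp4 lies near its later level by day 2, with effects of 1.36 in soleus and 1.48 in quad, where day 2 had 2 rosiglitazone rats. Fabp2 effects in liver were -0.88 on day 2 and -1.92 on day 6.

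Of 20 other genes of fatty acid binding and uptake measured in soleus, 3 rose with rosiglitazone and none fell, with a median difference of -0.02 over the list against -0.0042 over all features. They were Gpihbp1 (1.64), the capillary anchor of lipoprotein lipase, Cd36 (0.59), a fatty acid transporter, and Plin2 (0.52), a lipid droplet coat protein. In quad 4 of 21 rose and 2 fell, at a median of 0.03, with Gpihbp1 at 1.70, Plin2 at 0.69 and Cd36 at 0.51, and Cav1, a caveolar protein, at -0.51. With bezafibrate 2 of the list rose and 0 fell in each muscle, and both times these were Gpihbp1 (0.52 in soleus, 0.45 in quad) and Cd36 (0.36 and 0.37). With retinoic acid 0 rose and 2 fell in each, Gpihbp1 (-0.49 in soleus, -0.63 in quad) and Slc27a3 (-0.52 and -0.37), a fatty acid transport protein. Of all features 2.63% passed in soleus and 6.86% in quad with rosiglitazone. The shares were 0.904% and 1.63% with bezafibrate and 2.85% and 2.42% with retinoic acid. The lists were drawn up with results of these data known and are descriptions.

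Targets of PPARG known from fat cells moved in part with Fabp4. With rosiglitazone 6 of 15 rose and 0 fell in soleus (median 0.25), and 6 of 16 rose and 0 fell in quad (median 0.29). Rbp7, a retinol-binding protein of capillaries and fat, was highest at 3.40 in soleus and 3.69 in quad, and Angptl4, a secreted inhibitor of lipoprotein lipase, was at 1.09 and 0.93. Pparg itself was higher by 0.42 in soleus. With bezafibrate 3 of each list rose, with Rbp7 at 1.53 in soleus and 1.47 in quad and Angptl4 at 1.23 and 0.81. With retinoic acid 2 fell in each muscle, Rbp7 at -1.46 and -1.55 and Pparg at -0.28 and -0.27. In soleus and quad, 2.63% and 6.86% of all features passed with rosiglitazone. With bezafibrate 0.904% and 1.63% passed, and with retinoic acid 2.85% and 2.42%.

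Markers of the cell types that are known to hold Fabp4 were set beside these values. With rosiglitazone 5 of 12 markers of capillary endothelium rose and 1 fell in soleus, and 6 rose and 2 fell in quad, led in both by Rbp7, Gpihbp1 and Kdr (0.75 in soleus, 0.92 in quad), a receptor for VEGF. Of all features 2.63% passed in soleus and 6.86% in quad. Rbp7, Gpihbp1 and Cd36 are on more than 1 of these lists. The endothelial junction gene Pecam1 was at -0.32 in quad. The median ratio of the 12 markers ran from -0.02 to 0.28 over soleus rosiglitazone rats, against -0.45 to 0.39 over soleus vehicle rats, and from -0.07 to 0.32 in quad rosiglitazone rats, against -0.43 to 0.62 in quad vehicle rats. Of 9 fat cell markers 3 rose in soleus (Scd at 1.43, Lipe at 0.40, Pnpla2 at 0.40) and 2 rose in quad (Lipe at 0.44, Scd at 0.83), and 0 fell in either. Their median ratio ran from -0.40 to 0.61 in soleus rosiglitazone rats, against -0.57 to 0.33 in soleus vehicle rats, and from -0.55 to 0.86 in quad rosiglitazone rats, against -0.68 to 0.40 in quad vehicle rats. None of 10 macrophage markers passed in either muscle. The platform had no probe for Adipoq and Cidec, and the part of these cell types in the result was not tested.

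With bezafibrate 4 endothelial markers rose and 0 fell in each muscle (Rbp7, Gpihbp1, Kdr and Cd36) and 0 of 9 fat cell markers passed. Of all features 0.904% passed in soleus and 1.63% in quad. With retinoic acid 3 endothelial markers fell in each muscle, Rbp7, Gpihbp1 and Tek (-0.21 in soleus, -0.22 in quad), a receptor of vessel walls. Macrophage markers fell in part with retinoic acid, 1 of 10 in soleus (Cd74 at -0.44) and 3 of 10 in quad, among them Lyz2 at -0.50. That compound called 2.85% of all features in soleus and 2.42% in quad. The part of these cells in the lower Fabp4 was not tested.

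By the correlation of effects over the 15 combinations of tissue and compound, among 9908 genes, Fabp4 was most like Gpihbp1 (Pearson r = 0.964), Rbp7 (0.961) and Car4 (0.916), an anchored carbonic anhydrase of capillaries. Fabp5 was most like Plaur (0.903), the urokinase receptor, Slc2a3 (0.877), a glucose transporter, and Cyp4f5 (0.874). Fabp2 was most like Slc30a3 (0.97), Praf2 (0.963) and Tubgcp5 (0.962). The 15 points share vehicle arrays within each tissue, so these coefficients are given without a test.

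In liver the PPARA agonists moved Fabp3 and Fabp2, and neither passed with rosiglitazone. Fabp3 rose most with Wy-14643. Its lowest, median and highest log2 ratios were 0.58, 2.73 and 3.83 in Wy-14643 rats, against -0.42, 0.02 and 0.55 in vehicle rats. All 15 Wy-14643 rats lay above the highest of 73 vehicle rats. The difference was 2.75 ± 0.13 (SE), or 6.71-fold (adjusted p = 6.43e-39, limma), where 40.2% of features passed. By day, from 2 to 6, the effect was 2.27, 3.24, 2.30, 2.79 and 3.13.

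With fenofibrate the lowest, median and highest Fabp3 ratios were 0.09, 1.61 and 3.80 in 14 rats, of which 11 lay above the highest vehicle rat. The difference was 1.65 ± 0.14, or 3.13-fold (adjusted p = 2.27e-20, limma), where 37.0% of features passed. Day effects were 1.20, 1.98, 1.79, 0.77 and 2.5. With bezafibrate the ratios were -0.03, 0.44 and 1.52, with 7 of 15 rats above the highest vehicle rat, and the difference was 0.57 ± 0.13, or 1.49-fold (adjusted p = 0.00039), where 21.3% passed. With retinoic acid Fabp3 differed by 0.10 ± 0.13, which did not pass. With rosiglitazone it differed by 0.17 ± 0.13, and by -0.02 ± 0.12 without rat 1376. The day 4 effect of 0.93 included that rat.

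**Figure D4:**
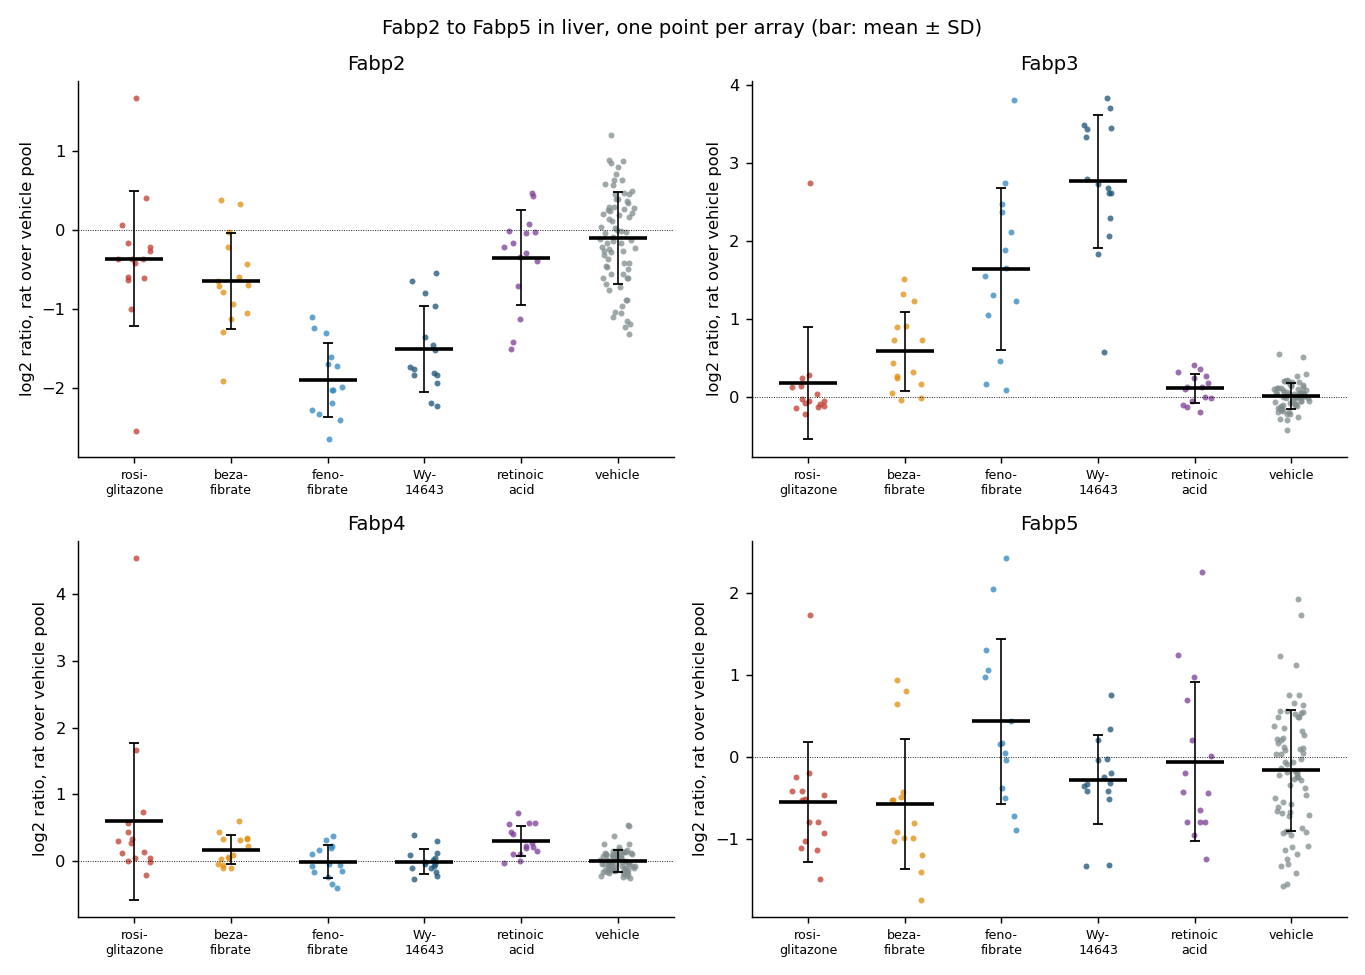
Log2 ratio of each rat to its vehicle pool (y axis) in liver for Fabp2, Fabp3, Fabp4 and Fabp5, by compound (x axis). Points are arrays and bars are mean and SD. All 15 Wy-14643 rats lie above the highest vehicle rat (0.55) for Fabp3, and rosiglitazone rat 1376 stands apart in all 4 panels, at 4.54 for Fabp4.

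Fabp2 fell in the same livers. With fenofibrate its lowest, median and highest ratios were -2.66, -2.01 and -1.10 in fenofibrate rats, against -1.32, -0.09 and 1.20 in vehicle rats. All 14 fenofibrate rats lay below their day's vehicle mean and 11 lay below the lowest vehicle rat. The difference was -1.80 ± 0.17, a 3.48-fold lower level (adjusted p = 5.91e-17, limma), where 37.0% of all features passed. The effects of single days lay between -2.03 and -1.42. With Wy-14643 the ratios were -2.23, -1.73 and -0.54, again with 11 of 15 rats below the lowest vehicle rat. The difference was -1.41 ± 0.16, or 2.65-fold lower (adjusted p = 8.49e-13), where 40.2% passed. Over days 2 to 6 the Wy-14643 effect was -0.88, -0.99, -1.64, -1.61 and -1.92. Its slope of -0.27 ± 0.11 per day had an unadjusted p of 0.020 and an adjusted p of 0.50, so the change over days did not pass.

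Bezafibrate lowered Fabp2 by less, with ratios of -1.91, -0.70 and 0.38. The difference was -0.55 ± 0.16, or 1.46-fold lower (adjusted p = 0.0081, limma), where 21.3% of all features passed. That call was lost without day 6 (-0.40), the day on which the effect was -1.14. Rosiglitazone and retinoic acid did not pass, at -0.26 ± 0.16 and -0.25 ± 0.16. Rosiglitazone rats held both the highest Fabp2 ratio in liver, 1.67 in rat 1380, and one of the lowest, -2.54 in rat 1376. Without rat 1376 the rosiglitazone difference was -0.11 ± 0.16. Markers of the absorptive cells of the gut were set beside Fabp2: 0 of 7 rose and 2 fell with fenofibrate, 0 rose and 3 fell with Wy-14643, and 0 rose and 2 fell with bezafibrate, where 37.0%, 40.2% and 21.3% of all features passed in either direction. In each Apoa4, an apolipoprotein that liver also makes, was lowest (-2.23, -2.11 and -1.0). The part of other cells in the Fabp2 result was not tested.

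The livers in which Fabp3 rose also showed PPARA targets higher. With Wy-14643 16 of 17 targets rose and 0 fell, at a median of 1.70, with fenofibrate 16 rose and 0 fell at 1.55, and with bezafibrate 14 rose and 0 fell at 0.85, where 40.2%, 37.0% and 21.3% of all features passed in either direction. Cpt1b, the muscle form of the carnitine transferase that admits fatty acids to mitochondria, stood at 3.25, 2.81 and 1.63 in the same order. Among 16 other genes of fatty acid binding and uptake, 8 rose and 1 fell with Wy-14643 (median 0.19), 7 rose and 2 fell with fenofibrate (0.15), and 5 rose and 0 fell with bezafibrate (0.09). They included Acsl3 and Acsl1, which activate fatty acids to coenzyme A esters (1.53 and 0.78 with Wy-14643, 1.56 and 0.85 with fenofibrate), and Fabp7, the brain form of the family (1.64 with Wy-14643 and 0.69 with bezafibrate). With retinoic acid, which left Fabp3 and Fabp2 uncalled, 1 PPARA target rose and 10 fell (median -0.29), 1 gene of fatty acid binding rose and 5 fell, and Fabp7 was at -0.95. That comparison called 29.2% of all features. Of 10 macrophage markers 8 fell and 0 rose with Wy-14643 and with fenofibrate, and 3 fell with bezafibrate. Slow muscle markers, which bear on Fabp3, had 1 riser and 1 faller of 6 with each of the 3 compounds, and 0 of 8 fast muscle markers passed. The part of these cells was not tested.

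Fabp4 in liver rose with rosiglitazone, but by less than in muscle and with the size resting on rat 1376. The lowest, median and highest ratios were -0.21, 0.27 and 4.54 in rosiglitazone rats, against -0.26, -0.03 and 0.54 in vehicle rats, and 4 of 15 rosiglitazone rats exceeded the highest vehicle rat. The difference was 0.60 ± 0.11 (adjusted p = 3.12e-05, limma), where 22.7% of features passed, and 0.30 ± 0.06 without rat 1376 (adjusted p = 5.98e-05). Day effects were 0.09, 0.10, 1.59, 0.87 and 0.35: day 4 held rat 1376, and day 5 held rat 1380 at 1.67. Retinoic acid rats had ratios of -0.03, 0.23 and 0.72, 13 of 15 of them above their day's vehicle mean. The difference was 0.30 ± 0.11 (adjusted p = 0.029), where 29.2% of features passed. That call was lost without day 3 (0.29), day 5 (0.30) or day 6 (0.28), and probe 10011845895 by itself gave -0.03. Bezafibrate gave 0.17 ± 0.11, which did not pass with rat 1376 in the fit and passed without it (0.17 ± 0.05, adjusted p = 0.016). Fenofibrate and Wy-14643 gave -0.01 each.

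Fabp5 was the most variable of the 4 genes in liver vehicle rats. With fenofibrate its lowest, median and highest ratios were -0.89, 0.17 and 2.42 in fenofibrate rats, against -1.58, -0.17 and 1.93 in vehicle rats, and the groups overlapped over most of their range. The difference of 0.57 ± 0.23 passed narrowly (adjusted p = 0.042, limma), where 37.0% of all features passed. It was lost without day 2 (0.65), day 5 (0.36) or day 6 (0.57) and under 3 other settings. With rosiglitazone 14 of 15 rats lay below their day's vehicle mean, and the difference was -0.39 ± 0.22, which did not pass. Without rat 1376 it was -0.59 ± 0.22 and passed (adjusted p = 0.048). Bezafibrate (-0.41 ± 0.22), Wy-14643 (-0.12 ± 0.22) and retinoic acid (0.10 ± 0.22) did not pass.

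The effect on a gene was then compared between muscle and liver by a test of the difference itself. The rosiglitazone effect on Fabp5 was higher by 1.92 ± 0.25 in quad than in liver and by 1.68 ± 0.26 in soleus than in liver (adjusted p = 4.02e-10 and 7.68e-07, limma), where 13.6% and 5.65% of features passed. For Fabp4 the same differences were 0.76 ± 0.16 and 0.76 ± 0.14 (adjusted p = 0.00016 and 2.54e-05), and 1.04 ± 0.12 and 1.02 ± 0.09 without the arrays that stood apart. The Fabp2 effects of fenofibrate and Wy-14643 differed by 1.79 ± 0.16 and 1.42 ± 0.17 between quad and liver and by 1.84 ± 0.19 and 1.42 ± 0.19 between soleus and liver. Features passed at 22.6% with fenofibrate and 24.1% with Wy-14643 between quad and liver, and at 16.9% and 20.5% between soleus and liver. Ratios do not show whether Fabp2 was detected in muscle, and this was not tested. The bezafibrate effect on Fabp2 differed by 0.56 between quad and liver and by 0.60 between soleus and liver, where 10.1% and 6.15% passed, and the soleus difference no longer passed with the rat as a block (0.61). The retinoic acid effect on Fabp4, lower in muscle and higher in liver, differed by -0.72 ± 0.15 between quad and liver and by -0.60 ± 0.14 between soleus and liver, where 15.9% and 12.7% passed. With the rat as a block, over rats measured in both tissues, the Fabp4 difference for rosiglitazone between quad and liver was 0.59 and no longer passed, over 10 rosiglitazone rats on 4 days. Between soleus and liver it passed, at 0.69.

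With rosiglitazone the 4 Fabp4 probes agreed in direction in each tissue and differed in size. With other compounds they did not always: in EDL with fenofibrate 10011845895 gave -0.048, and the others gave 0.14 to 0.21. For rosiglitazone the 3 probes 10020289781, 10020289840 and 10020291052 gave 1.63, 1.54 and 1.55 in soleus, while 10011845895 gave 0.71. In quad they gave 1.64, 1.60 and 1.57, against 0.62, and in EDL at 10 mkd 1.80, 1.67 and 1.65, against 0.76. In liver they gave 0.66, 0.73 and 0.81, against 0.20. Over the arrays of a muscle the first 3 probes correlated with each other at 0.987 to 0.999 and with 10011845895 at 0.76 to 0.929. In liver these coefficients were 0.816 to 0.922 and 0.63 to 0.802. The averaged values therefore lie below those of 3 probes and above that of the fourth.

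**Figure D5:**
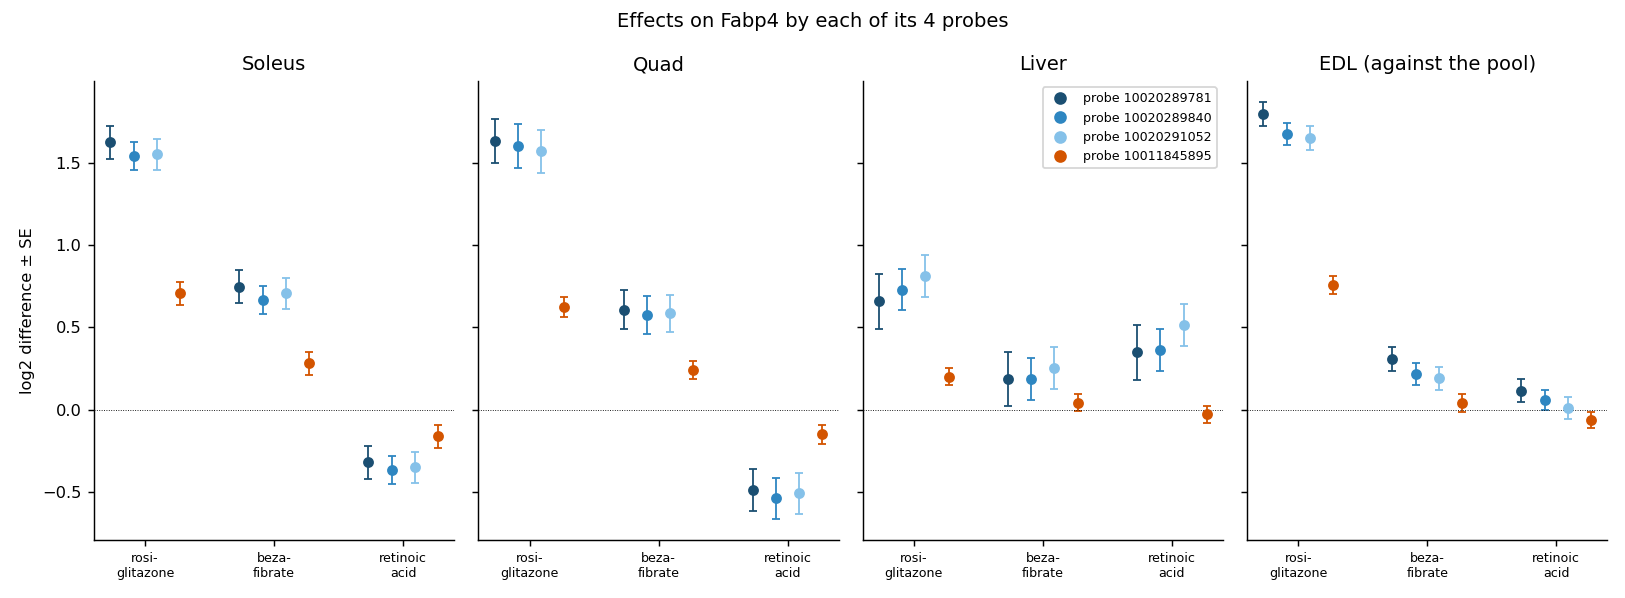
Effect on Fabp4 read by each of its 4 probes (colour), as the log2 difference from vehicle, or from the pool in EDL, with its SE (y axis), for rosiglitazone, bezafibrate and retinoic acid (x axis) in soleus, quad, liver and EDL. Probe 10011845895 lies nearer 0 than the other 3 in every panel with rosiglitazone, at 0.71 in soleus where the others lie at 1.54 to 1.63, and it lies on the other side of 0 with retinoic acid in liver (-0.03) and in EDL (-0.063).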

How the data were processed

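The table deposited by the authors holds 1 column of log10 ratios per array, limited to -2 and 2. Labels and header do not state normalisation, scale or direction. Scale was inferred from the values and direction from the channels, with no dye swap. Ratios were multiplied by 3.3219 to give log2 values. Of the values 0.907% were missing.

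Gene names came from the platform table, and a gene's probes were averaged. A feature entered the tests of a tissue where at least 80% of the arrays gave it a value. Precision is limited by how many arrays there are. limma 3.58.1 in R 4.3.3 (statmod 1.5.0) fitted 1 mean per compound and day, with compound minus vehicle averaged over days, and Benjamini-Hochberg adjustment per comparison. EDL ratios were tested against 0. Tables and figures used Python 3.11.15, numpy 2.4.6, pandas 2.3.3, scipy 1.17.1 and matplotlib 3.10.9. The procedure was tested on simulated data.

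The genes and gene lists were chosen with earlier results of these data known. Named genes are the 4 described, up to 4 passing list members per comparison with the smallest adjusted p, and the 3 genes most like each. Cyp4a1, a check of direction, lies outside that rule.

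Rat numbers pair tissues, as the labels number each rat, except 4 quad rosiglitazone rats of day 3, numbered 1 to 4, which could not be paired: deviations from the group means correlated between soleus and quad at a median of 0.269 (111 rats), between soleus and liver at 0.14 (106) and between quad and liver at 0.144 (121). Alternatives were array medians subtracted, one spread, quality weights, complete values, leaving out days, the pool as control, single probes, the rat as a replicate block, other compounds in place of the EDL pool, and the 9 arrays with a spread over 3 times the tissue's median or another tissue's markers more than 2 log2 units higher left out. Leaving out single arrays, all alternatives of the comparisons with liver and the EDL probe tests were chosen after seeing the data.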

Additional observations from a re-analysis of the deposited data

Results flagged for a closer look

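All values below are differences between tissues in the log2 effect of a compound against same-day vehicle, muscle minus liver, that passed in limma's test of the difference itself. For Fabp5 the rosiglitazone effect was higher by 1.92 in quad and by 1.68 in soleus than in liver. The fenofibrate effect on Fabp5 was lower in both muscles than in liver, by -0.82 in quad and -0.82 in soleus. With the rat as a replicate block the fenofibrate differences were -0.60 and -0.72 and no longer passed.

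For Fabp4 the rosiglitazone effect was higher by 0.76 in quad and by 0.76 in soleus than in liver. With the block the quad difference was 0.59 and no longer passed, and the soleus difference passed at 0.69. The bezafibrate effect was higher in soleus than in liver by 0.43, and by 0.40 with the block, where it no longer passed. The retinoic acid effect was lower in muscle than in liver, by -0.72 in quad and -0.60 in soleus, and passed with the block at -0.61 and -0.56.

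For Fabp2 the effects in liver were below those in muscle with all 3 PPARA agonists. The difference was 1.79 in quad and 1.84 in soleus with fenofibrate, 1.42 in quad and 1.42 in soleus with Wy-14643, and 0.56 in quad and 0.60 in soleus with bezafibrate. The bezafibrate difference in soleus was 0.61 with the block and no longer passed. Detection of Fabp2 in muscle was not tested. A check for a single outlying rat applies to groups of 4 to 10 rats, which here are 4 groups of EDL, and none of its 16 checks found one. The groups of soleus, quad and liver were too large for it, so rat 1376 lay outside it.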

How the results depend on the processing

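Over 140 results, 1433 alternative values were computed: 1371 kept their side of the threshold, 38 lost a call, 21 gained one and 3 turned round with a call. Among values not called under either setting, 101 changed sign. With the mean of the other compounds in place of the pool in EDL, Fabp2 was 0.10 with rosiglitazone and 0.057 with Wy-14643 and Fabp3 was 0.18 with bezafibrate, none of them called, and Fabp4 turned to -0.27 with bezafibrate and to -0.33 with retinoic acid. Leaving out a day in EDL lost Fabp2 with rosiglitazone (0.09 without day 6), Fabp2 with Wy-14643 (0.13 without day 3, 0.12 without day 4, 5 or 6), Fabp3 with bezafibrate (0.20 without day 4, 0.32 without day 6) and Fabp4 with bezafibrate (0.16 and 0.19 without the same days). Quality weights gave 0.11 for Fabp3 with bezafibrate in EDL, and one spread gave 0.18 for Fabp4.

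Probe 10011845895 alone gave Fabp4 values of 0.042 with bezafibrate in EDL, and of -0.15 in quad, -0.16 in soleus and -0.028 in liver with retinoic acid, none called, the last with its sign turned. Probe 10020289781 alone lost the retinoic acid calls in liver (0.35) and soleus (-0.32). Those calls were also lost in liver without day 3 (0.29), 5 (0.30) or 6 (0.28), in soleus without day 3 (-0.25), 4 (-0.32) or 5 (-0.25), and in quad without day 3 (-0.37). In liver, Fabp2 with bezafibrate lost its call without day 6 (-0.40). Fabp5 with fenofibrate lost it with quality weights (0.43), one spread (0.46), the pool as control (0.40) and without day 2 (0.65), 5 (0.36) or 6 (0.57). The cause was not tested.

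With the rat number as a replicate block, differences between muscle and liver lost a call for Fabp2 with bezafibrate (0.61, soleus), Fabp4 with bezafibrate (0.40, soleus) and rosiglitazone (0.59, quad), and Fabp5 with fenofibrate (-0.60, quad; -0.72, soleus). The block used only rats measured in both tissues. It changed no other call. Between soleus and quad no difference passed with the block either, and it gave -0.033 for Fabp4 and -0.23 for Fabp5 with rosiglitazone. The rosiglitazone effects on Fabp4 and Fabp5 in soleus, quad and EDL, and those of Wy-14643 and fenofibrate on Fabp3 and Fabp2 in liver, kept their direction and call under each alternative run.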

Other observations

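Vehicle rats themselves differed in these genes. Within days, the SD of Fabp5 over 73 liver vehicle rats was 0.744 log2 units and that of Fabp2 was 0.591, which placed them at percentiles 99.15 and 98.35 of 18403 features with a median SD of 0.155. Fabp3 and Fabp4 were ordinary there, at 0.158 and 0.161. In quad the SDs were 0.381 for Fabp4, 0.424 for Fabp5 and 0.105 for Fabp2, beside a median of 0.186 over features.

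After day means were subtracted, Fabp2 and Fabp5 ran against each other over the 73 liver vehicle rats, with Pearson r = -0.659 and Spearman rho = -0.65. Each had a permutation p of 1e-05, the smallest the permutations can give, and an adjusted p of 0.00012 over 12 relations. Without the 2 rats farthest from the median of Fabp2, r was -0.662. Of the other 11 relations 1 passed by Pearson's r, that of Fabp4 and Fabp5 over 63 quad vehicle rats (r = 0.409, permutation p = 0.00082, adjusted p = 0.0049). It did not pass by Spearman's rho (0.244, permutation p = 0.055, adjusted p = 0.33), and r was 0.277 without the 2 farthest rats.

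Among liver vehicle rats Fabp5 was most like Cry1 (r = 0.71), a gene of the circadian clock, Pmvk (0.703), of sterol synthesis, and Csad (0.67), of taurine synthesis. Fabp2 was most like Agpat3 (0.792), Agmat (0.772) and Copb2 (0.763), Fabp3 most like Efemp2 (0.581) and Fabp4 most like Prkch (0.563), each among 9832 genes. In muscle vehicle rats, arrays that stood apart included, Fabp4 was most like Fli1 (0.771) and Rbp7 (0.72) in soleus and Cidea (0.762) and Rbp7 (0.75) in quad. Fabp5 was most like Ccnd1 (0.887) in soleus and Tlnrd1 (0.702) in quad. Without those arrays the order changed: Fabp4 was most like Fli1 (0.716) in soleus and Tspo (0.774) in quad, and Fabp5 most like Acsl5 (0.847) in soleus and Nrp1 (0.755) in quad. These are descriptions over rats that share a pool per day.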
